A study of Mus musculus with 12 samples.

Results

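The genes described here act where a vessel takes up the fat carried in blood: Angptl4 and Gpihbp1, which control lipoprotein lipase, the lipase gene Lpl itself, and the fatty acid binding protein gene Fabp4. They were chosen by symbol, and 4 of the 5 genes named (these and Cd36) were in the deposited table of 3534 gene symbols. All 4 passed the filter on low values (at least 1 FPKM in at least 3 libraries), which 1659 genes passed in all. Cd36, which encodes a fatty acid transporter of the cell surface, was not analysed here.

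Lipoprotein lipase is made mainly by fat, heart and skeletal muscle cells and splits the triglycerides of circulating lipoproteins on the luminal face of capillaries. GPIHBP1, an anchored protein of capillary endothelial cells, picks the enzyme up, carries it across the endothelium and holds it there. ANGPTL4 is a secreted inhibitor of the enzyme whose gene is induced by fatty acids through the PPAR nuclear receptors, by glucocorticoids and by low oxygen. FABP4 binds fatty acids inside adipocytes and is also made by capillary endothelial cells and macrophages.

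RNA was taken from mouse aorta in 4 groups. HSAPN samples had an APPL1 knockdown and a high-fat diet, HAPN and HFD samples were both WT in genotype on the high-fat diet, and WT samples were WT in genotype on a normal diet. The high-fat diet gave 60% of its calories as fat for 12 weeks and was meant to produce type 2 diabetes, per the labels. The sources used here do not give what sets HAPN apart from HFD, how or in which cells APPL1 was knocked down, or the strain, sex and age, and Appl1 itself was not analysed here. HFD replicates 1 and 2 held the same value in each of 3534 rows and therefore counted once, as HFD 1/2. That left 11 distinct libraries: 3 HSAPN, 3 HAPN, 2 HFD and 3 WT. The labels do not say whether replicates were separate animals, so p-values measure only the spread between these samples, which may be technical.

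The values are FPKM, fragments per kilobase of gene scaled to library depth, as deposited. Totals of 15685000 to 17881000 reads per library were fitted so that low values came closest to whole reads. At these totals 95.7 to 97.0% of values worth no more than 20 reads came to whole numbers within 0.1. As the totals were fitted to this, it is no independent check of them. The table held 12.0 to 17.6% of the fitted reads. Smooth muscle markers, which define the aortic wall, were present in every library (9 genes, summed level 313 to 522 FPKM in HSAPN, 294 to 550 in HAPN, 251 to 916 in HFD and 709 to 2895 in WT). None of the general endothelial markers listed (Pecam1, Cdh5 and others) was in the table, so the amount of endothelium could not be followed by them. Libraries of the same group also differed in genes of fat, heart muscle, airway and red blood cells, and their levels are given below.

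In GRCm38 with GENCODE M21, Angptl4 (ENSMUSG00000002289) lies at chr17:33773750-33781830 on the minus strand and Gpihbp1 (ENSMUSG00000022579) at chr15:75596628-75599481 on the plus strand. Lpl (ENSMUSG00000015568) lies at chr8:68880491-68907448 on the plus strand and Fabp4 (ENSMUSG00000062515) at chr3:10204088-10208576 on the minus strand. All are protein coding and none overlaps another annotated gene. The values of Gpihbp1, Lpl and Fabp4 returned whole or nearly whole reads when multiplied by the length of all annotated exons merged and the fitted read total. For Fabp4 that length is 4489 bases, the whole gene, against 896 for its longest coding transcript, and for Lpl 10478 against 4115. FPKM therefore understates these genes by different factors, and their levels are compared between libraries and not with each other. Fabp4 was still well counted, at 157 to 15427 reads per library, as were Lpl (960 to 11601) and Gpihbp1 (366 to 2386). The values of Angptl4 did not return whole reads with its merged length, at 1146.59 in HSAPN 2 and 256.476 in WT 1 for example. Its read numbers, and limma-voom on recovered reads for it, are therefore approximate.

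Angptl4, the lipase inhibitor gene, stood highest in HFD and lowest in the WT group. It was at 21.5, 18.5 and 16.8 FPKM in HSAPN libraries 1 to 3, 13.6, 16.7 and 19.8 in HAPN, 36.3 and 28.3 in HFD (1/2 and 3), and 4.14, 3.59 and 16.0 in WT. The 2 HFD libraries were the highest of the 11, and WT 1 and 2 were the lowest by a gap of 3.29-fold to the next library. WT 3 lay among the high-fat libraries. HSAPN and HFD did not overlap WT, while HAPN did, through WT 3.

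Gpihbp1, the endothelial carrier of the lipase, had the same low pair of libraries. It was at 46.5, 40.5 and 39.3 FPKM in HSAPN, 24.6, 47.0 and 49.5 in HAPN, 28.9 and 56.2 in HFD, and 8.19, 9.83 and 34.2 in WT. WT 1 and 2 were again the lowest, 2.50-fold under the next library, and WT 3 ranked in the middle. HSAPN did not overlap WT, and HAPN and HFD did. The summed level of 7 capillary endothelial markers divided the libraries in the same way, at 113 to 212 FPKM in HSAPN, 110 to 157 in HAPN, 140 and 210 in HFD, and 46.6 and 62.5 in WT 1 and 2 against 168 in WT 3. Their mean on the log2(FPKM + 1) scale put only WT 1 apart, at 1.82, with WT 2 at 2.39 inside the 2.22 to 3.46 of the high-fat libraries. Most of that sum in each library came from 1 of the 7 markers, Rgcc, at 33.2 and 35.8 FPKM in WT 1 and 2 and 126 in WT 3. With Gpihbp1 itself counted, 7 genes of that list were tested, of which 4 were higher and 3 lower over the high-fat groups. Across the 11 libraries Gpihbp1 ran with the mean log2 level of those 7 markers at r = 0.35 (permutation adjusted p = 0.422). By rank rho was 0.11 (adjusted p = 0.789), and for Angptl4 r was 0.62 (adjusted p = 0.0926). None of these passed, and the part of capillary endothelium in the Gpihbp1 levels was not tested further. Within the 8 high-fat libraries Gpihbp1 spanned 24.6 to 56.2 FPKM and followed no group, unlike Angptl4, whose HFD libraries were apart from HAPN and HSAPN.

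**Figure D1:**
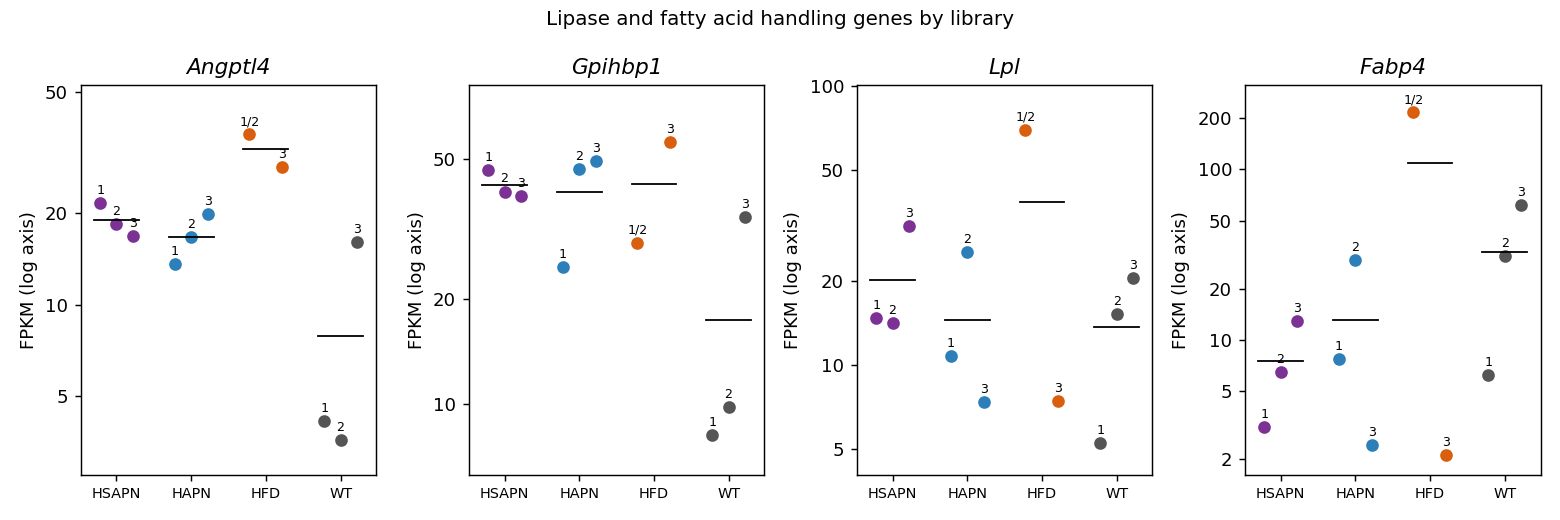
FPKM (log axis) of the 4 genes in the 11 distinct libraries, by group. Each point is a library with its replicate number (1/2 stands for the pair of identical HFD files) and each bar a group mean. Angptl4 and Gpihbp1 are lowest in WT 1 and 2, while Lpl and Fabp4 are spread as widely within groups as across them.

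Lpl, the lipase gene, was at 14.7, 14.1 and 31.6 FPKM in HSAPN, 10.8, 25.3 and 7.35 in HAPN, 69.6 and 7.40 in HFD, and 5.23, 15.2 and 20.5 in WT. The highest library (HFD 1/2) and one of the lowest (HFD 3) were in the same group. Every pair of groups overlapped.

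Fabp4, the cytosolic carrier of fatty acids, was at 3.09, 6.45 and 12.9 FPKM in HSAPN, 7.72, 29.3 and 2.41 in HAPN, 216 and 2.10 in HFD, and 6.24, 31.2 and 61.6 in WT. The top and the bottom of the whole series were the 2 HFD libraries, 103-fold apart. Every pair of groups overlapped for Fabp4 too. Its SD over the libraries was 1.93 on the log2(FPKM + 1) scale, wider than 98.9% of the tested genes, and the other genes stood at 90.1 to 92.3%.

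The genes parted in how much of that spread lay between the 4 groups. On the log2(FPKM + 1) scale the groups accounted for 72.0% of the sum of squares of Angptl4 and 57.9% of that of Gpihbp1, but for 14.0% for Lpl and 18.3% for Fabp4, against a median of 42.7% over all tested genes.

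The first question of the design is what the high-fat diet does without a knockdown, which is HFD against WT. Angptl4 averaged 32.3 ± 5.64 FPKM in HFD (SD, n = 2) and 7.92 ± 7.02 FPKM in WT (SD, n = 3), a log2 difference of 2.17 (SE 0.484). That was the 7th smallest p of the 1659 genes but did not pass the Benjamini-Hochberg threshold of 0.05 (limma adjusted p = 0.300). Gpihbp1 averaged 42.5 ± 19.3 FPKM in HFD and 17.4 ± 14.6 FPKM in WT (log2 difference 1.44, SE 0.557; limma adjusted p = 0.369). Lpl averaged 38.5 ± 44.0 FPKM in HFD and 13.7 ± 7.75 FPKM in WT (0.91, SE 0.886; limma adjusted p = 0.720), and Fabp4 109 ± 151 FPKM in HFD and 33.0 ± 27.7 FPKM in WT (0.087, SE 1.64; limma adjusted p = 0.992).

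None of the 4 genes was called in HFD against WT, where 0% of all tested genes were, and 2 had an unadjusted p under 0.05, as 11.4% of all did (189 genes). Of the 4, Angptl4 alone did not overlap between HFD and WT, as 19.3% of tested genes did not, 12.1% in the higher direction. The means of Lpl and Fabp4 rested on 1 library: without HFD 1/2 the log2 difference was -0.63 for Lpl and -2.98 for Fabp4. Fewer cells of a type and less RNA per cell cannot be told apart in such bulk samples.

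HAPN and HSAPN were set against the same 3 WT libraries, so their differences from WT are not independent of those of HFD. In HAPN, Angptl4 averaged 16.7 ± 3.12 FPKM (SD, n = 3) against 7.92 ± 7.02 FPKM in WT, a log2 difference of 1.25 (limma adjusted p = 0.165). Gpihbp1 averaged 40.4 ± 13.7 FPKM in HAPN and 17.4 ± 14.6 FPKM in WT (1.38; limma adjusted p = 0.180). No gene of the table was called (0%), and these were the 2 of the 4 under an unadjusted p of 0.05, which 22.2% of tested genes were. For all 4 genes HAPN overlapped WT, and 27.5% of tested genes did not overlap.

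In HSAPN, the knockdown group, Angptl4 averaged 18.9 ± 2.41 FPKM against 7.92 ± 7.02 FPKM in WT (1.43; limma adjusted p = 0.168). Gpihbp1 averaged 42.1 ± 3.85 FPKM in HSAPN and 17.4 ± 14.6 FPKM in WT (1.5; limma adjusted p = 0.168). Here too 0% of genes were called, and the same pair was under an unadjusted p of 0.05, as 21.7% of tested genes were. Both were apart from WT without overlap, as were 29.4% of tested genes, 10.3% in the higher direction. Lpl differed from WT by 0.083 in HAPN and 0.61 in HSAPN on the log2 scale, and Fabp4 by -1.34 and -1.70, all with overlap and limma adjusted p of 0.470 to 0.946.

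Over the 3 high-fat groups together, 7 of 8 libraries exceeded every WT library for Angptl4 and 6 of 8 did for Gpihbp1. The mean of the 3 group means exceeded WT by 1.61 for Angptl4 (SE 0.361, 18th smallest p; limma adjusted p = 0.120) and by 1.44 for Gpihbp1 (SE 0.415; limma adjusted p = 0.133). Of all tested genes 0.0603% were called (1 gene, none of these 4), 23.6% had an unadjusted p under 0.05 and 4.04% did not overlap. Lpl differed by 0.53 (limma adjusted p = 0.600) and Fabp4 by -0.98 (limma adjusted p = 0.602).

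Marker genes of other cells differed in the same comparison, with none called. All 12 platelet markers were higher (median 0.96), and their summed level was 162 to 567 FPKM in the 8 high-fat libraries and 96.2 to 150 FPKM in WT, without overlap. Of 8 smooth muscle markers tested all were lower (median -1.19), as were 6 of 7 fibroblast markers (median -0.74), against a median of -0.064 over all tested genes. These directions were the same with median-ratio scaling and in limma-voom on recovered reads. In the main fit all 9 erythrocyte markers (median 1.44) and all 3 macrophage markers tested (median 0.32) were also higher. Of 15 adipocyte markers tested 11 were lower and 4 higher (median -0.63), and all 4 brown adipocyte markers tested were lower (median -0.61). Both cardiomyocyte genes (median -1.58) and both airway genes (median -2.99) were lower too. The part of all these cells in the differences was not tested.

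Replicate WT 3 decided these calls. Its level was 4.15 times the mean of WT 1 and 2 for Angptl4 and 3.80 times for Gpihbp1. Without it, both genes passed in each high-fat group against WT. The log2 difference in HFD was 2.77 for Angptl4 (limma adjusted p = 0.00224) and 2.05 for Gpihbp1 (limma adjusted p = 0.0445), with 1.67% of genes called. In HAPN it was 1.85 (limma adjusted p = 0.0104) and 1.99 (0.0195), with 10.9% called, and in HSAPN 2.03 (0.00955) and 2.11 (0.0152), with 10.1% called. Over the 3 groups it was 2.22 (limma adjusted p = 0.00209) and 2.05 (0.00892), with 14.8% called. Leaving out any other library left both genes uncalled in every comparison with WT. The labels give no reason to set WT 3 aside. With array weights, which give libraries far from their group less weight, both were called in HAPN (limma adjusted p = 0.00995 for each, 31.9% of genes called), in HSAPN (0.0166 for each, 23.8%) and over the 3 groups (0.0155 and 0.0258, 15.9%), but not in HFD (0.314 and 0.461).

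**Figure D2:**
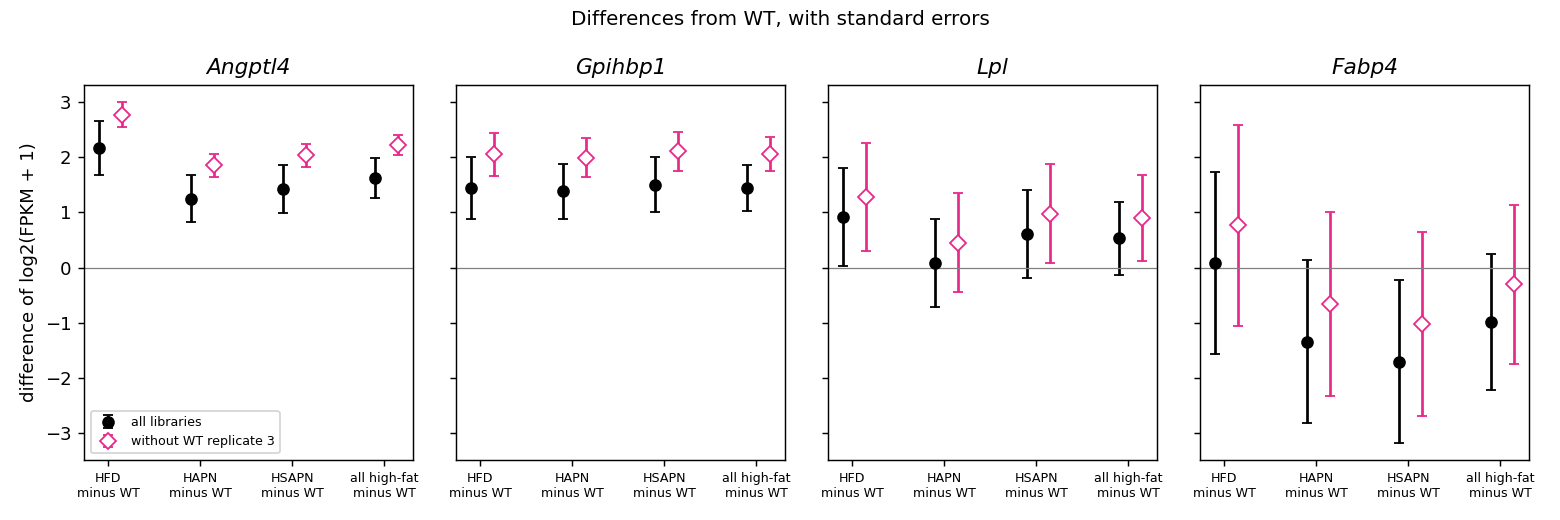
Differences of log2(FPKM + 1) from WT for the 4 genes, in HFD, HAPN, HSAPN and the mean of all high-fat groups. Filled circles use all 11 libraries, open diamonds leave out WT replicate 3, and bars are standard errors. For Angptl4 in HFD the difference was 2.17 with all libraries and 2.77 without that one, and the bars of Lpl and Fabp4 reach across or near 0.

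Red blood cell genes divided the libraries as Angptl4 and Gpihbp1 did. The summed level of 9 erythrocyte markers was 3201 to 4918 FPKM in HSAPN, 1328 to 3938 in HAPN, 2219 and 3884 in HFD, and 425 and 429 in WT 1 and 2 against 3238 in WT 3. None of the 9 was at 0 in all libraries of a group. Across the 11 libraries the mean log2 level of these markers ran with Angptl4 (Pearson r = 0.85, permutation adjusted p = 0.0142; Spearman rho = 0.65, adjusted p = 0.0736) and with Gpihbp1 (r = 0.82, adjusted p = 0.0157; rho = 0.35, adjusted p = 0.437). Without WT 1 and 2 r was 0.31 and 0.13, so both relations rested on those 2 libraries. Lpl ran with the same markers at r = 0.64 (permutation adjusted p = 0.0680) and rho = 0.75 (adjusted p = 0.0326), and at r = 0.74 without WT 1 and 2 (adjusted p = 0.113). For Fabp4 r was 0.20 (adjusted p = 0.652). The erythrocyte list was added to the relations after values had been seen, and the part of blood in these levels was not tested.

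Angptl4 and Gpihbp1 also ran together across the 11 libraries (r = 0.87, permutation adjusted p = 0.0157; rho = 0.66, adjusted p = 0.0736). Without WT 1 and 2 r was 0.19. Among deviations from group means r was 0.81 (exact permutation adjusted p = 0.229 over 432 arrangements), a value to which WT 3 against WT 1 and 2 contributes. These are among 22 relations tested together, 14 of them planned.

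**Figure D3:**
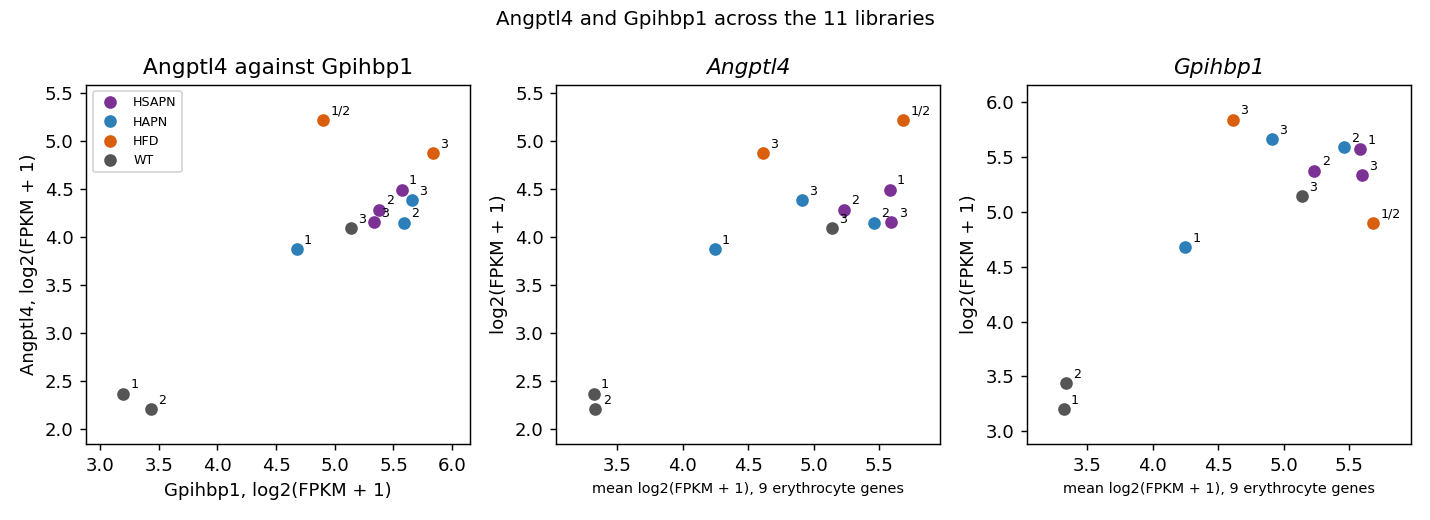
Angptl4 against Gpihbp1, and each against the mean of 9 erythrocyte genes, all as log2(FPKM + 1), in the 11 libraries (points, with replicate numbers, coloured by group). WT 1 and 2 stand apart at the low end of each panel, and without them Pearson r is 0.19, 0.31 and 0.13 in the panels.

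The second question is what differs between the high-fat groups. Angptl4 was lower in HAPN than in HFD without overlap (16.7 ± 3.12 FPKM in HAPN, 32.3 ± 5.64 in HFD), a log2 difference of -0.92 (SE 0.484, 95% interval -2.0 to 0.17; limma adjusted p = 0.542). Of all tested genes 0.181% were called and 26.3% did not overlap, 19.8% in the lower direction. In HSAPN, Angptl4 averaged 18.9 ± 2.41 FPKM, also below HFD without overlap, at -0.74 (95% interval -1.83 to 0.35; limma adjusted p = 0.886). In that comparison 0% were called, 19.8% did not overlap and 14.2% were lower without overlap. Both comparisons share the 2 HFD libraries. The median of all tested genes was itself -0.24 in HAPN and -0.18 in HSAPN against HFD, and with median-ratio scaling, which brought it to -0.013 and 0.011, Angptl4 was at -0.64 and -0.51.

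Gpihbp1 overlapped between the high-fat groups, with a log2 difference of -0.062 in HAPN against HFD (95% interval -1.31 to 1.19; 0.21 with median-ratio scaling, which turned its sign) and of 0.057 in HSAPN against HFD (-1.19 to 1.31). The intervals reach 1.19 to 1.31 on the log2 scale in either direction and allow a difference of that size. For Lpl the differences from HFD were -0.83 in HAPN and -0.30 in HSAPN, and for Fabp4 -1.43 and -1.79. Without HFD 1/2 the sign of all 4 turned, to 0.71 and 1.24 for Lpl and to 1.64 and 1.28 for Fabp4, against the single library HFD 3. None was called with or without it.

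The third question is HSAPN, the APPL1 knockdown group, against HAPN, which have the same diet in the labels. HFD shares that diet and the genotype of HAPN, and the labels do not say which of them is the control of the knockdown. Angptl4 was 18.9 ± 2.41 FPKM in HSAPN and 16.7 ± 3.12 FPKM in HAPN (log2 difference 0.18, 95% interval -0.80 to 1.15), and Gpihbp1 42.1 ± 3.85 FPKM in HSAPN and 40.4 ± 13.7 FPKM in HAPN (0.12, -1.0 to 1.24). Lpl was 20.1 ± 9.91 FPKM in HSAPN and 14.5 ± 9.53 FPKM in HAPN (0.53, -1.25 to 2.31), and Fabp4 7.48 ± 4.98 FPKM in HSAPN and 13.1 ± 14.2 FPKM in HAPN (-0.36, -3.66 to 2.94). Every gene overlapped between the groups and had a limma adjusted p of 0.999, where 0.121% of tested genes were called and 17.5% did not overlap. Over all 4 groups the limma F test gave adjusted p of 0.246 for Angptl4, 0.291 for Gpihbp1, 0.778 for Lpl and 0.697 for Fabp4, with 0.121% of genes called.

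Fabp4 and Lpl ran with the level of adipocyte marker genes across libraries. Of 18 adipocyte markers listed 17 were in the table, and their summed level was 89.0 to 173 FPKM in HSAPN, 77.3 to 338 in HAPN, 74.7 and 1383 in HFD, and 156 to 1065 in WT. Adipoq, the adiponectin gene, was at 0.533 to 4.06 FPKM in HSAPN, 0.0923 to 15.8 in HAPN, 92.6 and 0.174 in HFD, and 2.44 to 53.8 in WT, and Lep, the leptin gene, was listed at 0 in HSAPN 1, HFD 3 and WT 1. No marker of the list was at 0 in all libraries of a group. HFD 1/2 and WT 3 held the most adipocyte RNA, and HFD 3 and HAPN 3 the least.

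Fabp4 ran with the mean of the adipocyte markers at r = 0.98 (permutation adjusted p = 0.00022, from the smallest p the resamples can give; rho = 0.97), at r = 0.99 without HFD 1/2 and WT 3, and at r = 0.98 among deviations from group means (exact permutation adjusted p = 0.0509). Lpl ran with them less closely, at r = 0.78 (adjusted p = 0.0142; rho = 0.79), at 0.66 without the same 2 libraries (adjusted p = 0.196) and at 0.96 among deviations (adjusted p = 0.0509). Lpl and Fabp4 ran with each other at r = 0.82 (adjusted p = 0.0111; rho = 0.80), at 0.64 without HFD 1/2 and WT 3 and at 0.98 among deviations (adjusted p = 0.0509). For Angptl4 (r = 0.13, permutation adjusted p = 0.763) and Gpihbp1 (r = -0.15, permutation adjusted p = 0.763) the relation did not pass.

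Heart muscle RNA also varied within groups, and its relation to the adipocyte markers was not tested. The 2 cardiomyocyte genes in the table, of 13 listed, summed to 10.8 to 105 FPKM in HSAPN, 7.02 to 86.6 in HAPN, 7.16 and 243 in HFD, and 43.3 to 215 in WT. Fabp4 ran with them at r = 0.86 (adjusted p = 0.00499) and Lpl at r = 0.66 (adjusted p = 0.0545). Lpl ran with 7 capillary endothelial markers at r = 0.91 (adjusted p = 0.0011; rho = 0.92; 0.75 without HFD 1/2 and WT 1, adjusted p = 0.113), and Fabp4 at 0.77 (adjusted p = 0.0157). That capillary list, added after values had been seen, contains Aqp7, which adipocytes also express and the adipocyte list holds. The 2 airway epithelium genes in the table summed to 41.1 to 1229 FPKM in HSAPN, 7.07 to 4162 in HAPN, 6777 and 10.9 in HFD, and 268 to 11674 in WT. They were lowest in HAPN 3 and HFD 3, the 2 libraries lowest in Fabp4, and highest in WT 2 and HFD 1/2, and their part in the Fabp4 and Lpl levels was not tested. Which cells gave the Lpl and Fabp4 reads cannot be told apart in these libraries.

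**Figure D4:**
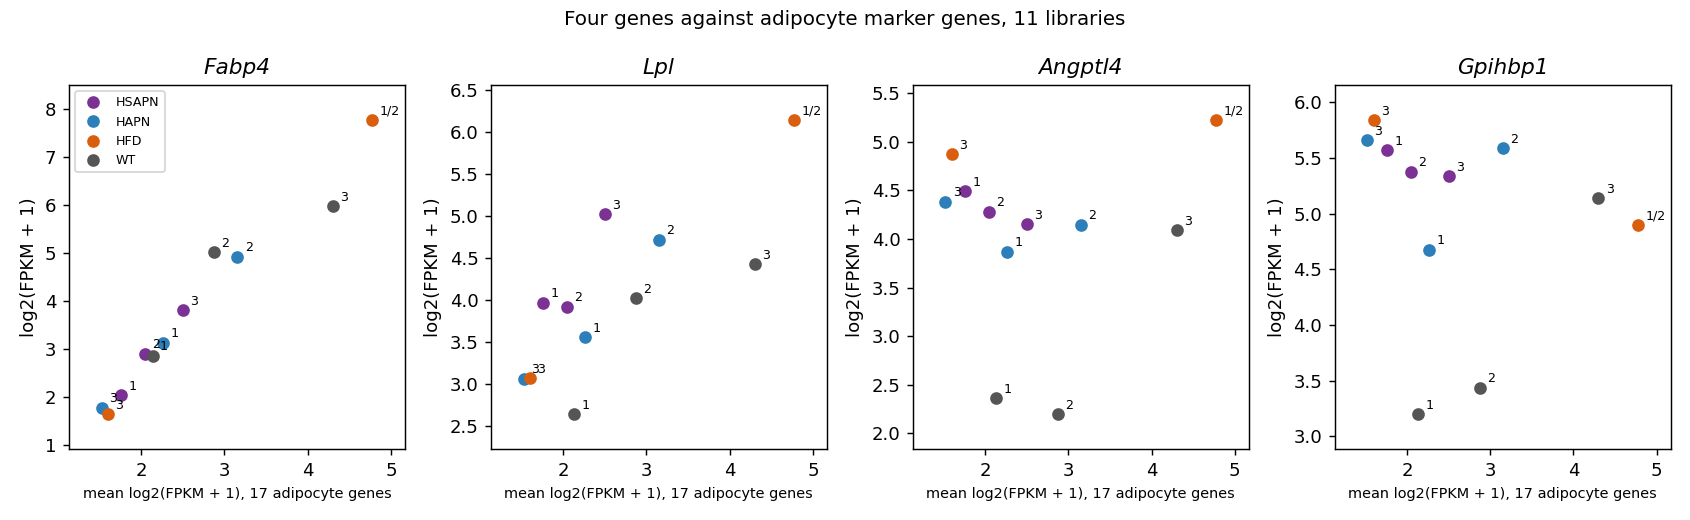
The 4 genes against the mean of 17 adipocyte markers, all as log2(FPKM + 1), in the 11 libraries (points, with replicate numbers, coloured by group). Fabp4 follows the markers at r = 0.98 and Lpl at r = 0.78, with WT 1 lowest for Lpl. Angptl4 and Gpihbp1 do not follow them, at r = 0.13 and -0.15.

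The ratio of Fabp4 to Lpl was 0.211, 0.456 and 0.409 in HSAPN, 0.717, 1.16 and 0.328 in HAPN, 3.10 and 0.284 in HFD, and 1.19, 2.05 and 3.01 in WT. Every WT library exceeded every HSAPN and HAPN library, while the 2 HFD libraries lay on either side of all WT libraries, HFD 1/2 above and HFD 3 below. HAPN 2 and WT 1 were nearly level. As the gene lengths are fixed, this order does not depend on the length used. Of single tested genes 29.4% did not overlap between HSAPN and WT and 27.5% between HAPN and WT, and no such share was taken for ratios. HFD 1/2 and WT 3, with the highest ratios, also held the most adipocyte RNA. HFD 3 and HAPN 3, which held the least, were among the lowest ratios, with HSAPN 1 lowest of all. No test was run on the ratio, and the part of fat in it was not tested.

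With the mean of the adipocyte markers as a covariate the high-fat groups together exceeded WT by 1.07 for Lpl (SE 0.231; limma adjusted p = 0.0461) and by 1.76 for Angptl4 (SE 0.340; limma adjusted p = 0.0368), with 4.64% of genes called. Gpihbp1 was at 1.48 (limma adjusted p = 0.0760) and Fabp4 at 0.031 (limma adjusted p = 0.950). Taken singly, HSAPN exceeded WT by 1.55 for Lpl (limma adjusted p = 0.0464), with 1.15% called. HFD exceeded WT by 0.83 for Lpl (limma adjusted p = 0.256) and HAPN by 0.82 (limma adjusted p = 0.114), neither called. HSAPN was above HAPN by 0.73 for Lpl, also uncalled (limma adjusted p = 0.404). These calls were fragile: leaving out 1 library in turn ended that of Lpl in 8 of 11 cases and that of Angptl4 in 7 of 11 for the high-fat groups together (limma adjusted p of up to 0.302 and 0.244, both without WT 1), and that of Lpl in HSAPN in 9 of 11 (up to 0.304). The difference of Lpl stayed between 0.87 and 1.35 for the high-fat groups together and between 1.34 and 1.84 in HSAPN, with no change of sign.

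Genes listed as acting on the lipase were few in the table, with 7 of 23 there and 6 tested, Angptl4, Gpihbp1 and Lpl among them. In HFD against WT 6 of 6 were higher and none was called, where 956 of 1659 tested genes were higher. The median log2 difference of 0.82, against 0.067 over all tested genes, counts those 3 again. The other 3 genes were each below it. Apoe, which encodes a ligand for clearance of lipoprotein remnants, averaged 318 ± 108 FPKM in HFD and 214 ± 136 FPKM in WT (0.73; limma adjusted p = 0.629). Apoc1, which encodes a small apolipoprotein, averaged 16.5 ± 2.62 FPKM in HFD and 14.1 ± 10.4 FPKM in WT (0.42). Hspg2, the gene of the heparan sulfate proteoglycan perlecan, averaged 9.83 ± 4.21 FPKM in HFD and 9.10 ± 4.25 FPKM in WT (0.15). None of 12 listed lipoprotein receptor genes was in the table.

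Of 30 listed genes of fatty acid uptake and binding 9 were tested, Fabp4 among them. In HFD against WT 8 were higher and 1 lower, with none called (median 0.18), where 956 of 1659 tested genes were higher. In limma-voom on recovered reads 4 were higher and 5 lower (median -0.021). The mean log2(FPKM + 1) of 10 list genes, without Fabp4, was 3.23 in HFD 1/2. In HFD 3 it was 2.27, below the 2.48 to 3.03 of WT. Over the high-fat groups together 1 of the 9 was higher and 8 were lower, again with none called (median -0.29, against -0.064 over all tested genes). Slc27a2, which encodes a very long chain acyl-CoA synthetase that also moves fatty acids into cells, was apart from WT without overlap. It was at 0.392, 0.638 and 1.75 FPKM in HSAPN, 2.05, 1.24 and 0.611 in HAPN, 2.51 and 0.641 in HFD, and 3.81, 3.80 and 3.09 in WT. All 8 high-fat libraries lay below all WT libraries, as they did for 2.29% of tested genes, and the log2 difference was -1.09 (SE 0.300; limma adjusted p = 0.133). It is named for having one of the smallest p-values of its list, as is Plin2 below. Fabp5, a related binding protein of endothelium and macrophages, was at 16.0 ± 6.91 FPKM in the 8 high-fat libraries and 10.2 ± 8.79 FPKM in WT (0.73; limma adjusted p = 0.322), with WT 3 again high at 20.3 FPKM against 4.77 and 5.42 in WT 1 and 2.

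PPAR receptors and their targets, the genes that respond to fatty acids as Angptl4 does, were represented by 21 tested of 35 listed. In HFD against WT 17 were higher and 4 lower (median 0.34), where 956 of 1659 tested genes were higher. Over the high-fat groups together 11 were higher and 10 lower (median 0.025, and 15 higher and 5 lower with median-ratio scaling). None was called in either. In HSAPN against HFD 0 were higher and 21 lower (median -0.54, against -0.18 over all tested genes), with none called. Of all tested genes 1210 of 1659 were lower there. With median-ratio scaling 2 of the list were higher and 18 lower (median -0.31, against 0.011 over all tested genes). The mean log2(FPKM + 1) of the 23 list genes in the table was 4.26 in HFD 1/2 but 3.18 in HFD 3. HFD 3 thus lay within the 3.04 to 3.22 of HSAPN and the 3.02 to 3.71 of WT, and only HFD 1/2 stood above them. Several of these genes are also made by adipocytes, whose markers were highest in HFD 1/2, and the part of fat in this list was not tested.

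Plin2, which coats lipid droplets in most cells, was apart from WT without overlap. It was at 35.0, 49.4 and 37.6 FPKM in HSAPN, 31.5, 46.0 and 57.0 in HAPN, 52.6 and 47.3 in HFD, and 21.8, 18.4 and 30.9 in WT. All 8 high-fat libraries lay above all WT libraries, WT 3 included, as they did for 1.75% of tested genes, with 44.6 ± 8.96 FPKM in high-fat and 23.7 ± 6.45 FPKM in WT (log2 difference 0.91, SE 0.219; limma adjusted p = 0.128). G0s2, the inhibitor of the triglyceride lipase ATGL, averaged 65.9 ± 21.5 FPKM in HFD and 31.8 ± 18.5 FPKM in WT (1.13; limma adjusted p = 0.353). Pparg, the receptor gene of fat cells, averaged 4.64 ± 1.63 FPKM in HFD and 5.20 ± 1.38 FPKM in WT (-0.14; limma adjusted p = 0.878).

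Targets of the glucocorticoid receptor and of the hypoxia response, which also act on Angptl4, were not called either. Of 7 glucocorticoid targets tested 5 were higher and 2 lower over the high-fat groups (median 0.61, against -0.064 over all tested genes, of which 740 were higher and 919 lower), among them Sgk1, a kinase gene, at 25.0 ± 4.56 FPKM in high-fat and 17.9 ± 10.9 FPKM in WT (0.62; limma adjusted p = 0.242). In Sgk1 too WT 3, at 29.7 FPKM, exceeded WT 1 and 2, at 8.40 and 15.4. Of 4 hypoxia targets 2 were higher and 2 lower (median -0.21), and Slc2a1, the gene of the glucose transporter GLUT1, was 11.5 ± 2.18 FPKM in high-fat and 18.4 ± 4.38 FPKM in WT (-0.62; limma adjusted p = 0.146).

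The genes most like each of the 4 were ranked by Pearson r of log2(FPKM + 1) over the 11 libraries among 1247 genes. For Angptl4 they were Ctla2a (r = 0.95), Tmeff2 (0.94), Slc7a10 (0.93), Fam57b (0.93) and Gng11 (0.91), the last being on the platelet list. For Gpihbp1 they were Gpx3 (0.98), an extracellular glutathione peroxidase gene, Nsg1 (0.96), Gpr4 (0.95), Pcbp3 (0.95) and Edn1 (0.94), the endothelin gene. For Lpl they were Fech (0.92), a haem synthesis gene on the erythrocyte list, Dlat (0.89), Ormdl3 (0.89), Rcan2 (0.89) and Car13 (0.89). For Fabp4 they were Adipoq (0.98), Plin4 (0.98), Car3 (0.98), Ppp1r1a (0.98) and Ephx2 (0.98), of which Adipoq is on the adipocyte list. These points share the libraries, their depth and their makeup of cells.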

How the data were processed

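Aortic RNA was isolated with TRIzol and sequenced from a directional NEB mRNA library, per the labels' protocols. Per the submitters' processing notes, featureCounts 1.5.0-p3, DESeq 1.8.3 and GRCm38 were used, with no roles given. Sources used here name no aligner, annotation or strand setting. The authors deposited 1 FPKM value per gene symbol and sample.

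Values were read as log2(FPKM + 1), which understates fold changes of low genes. The 1659 genes that reached 1 FPKM in 3 or more libraries entered 1 limma-trend fit of 4 group means (limma 3.58.1, R 4.3.3), and p-values were adjusted over all of them by Benjamini-Hochberg with a threshold of 0.05. The 0 counts of called genes below are from this test. Dlg2, listed 2 times, was left out. Relations across libraries used two-sided permutation tests with 100000 resamples, or all 432 arrangements of libraries within groups for deviations, adjusted over 22 relations (SciPy 1.17.1, pandas 2.3.3, NumPy 2.4.6, Python 3.11.15, matplotlib 3.10.9). Reads were recovered with merged exon lengths of GENCODE M21 and the fitted read totals. The fit was tested on simulated data.

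The genes named were the chosen ones in every comparison, up to 4 tested genes per list with the smallest p in HFD or all high-fat against WT, and the 5 most alike by Pearson r among genes averaging 1 or more on the log2(FPKM + 1) scale; not every list gene is described. The genes and lists were chosen with earlier results of these data known. Alternatives were filters, pseudocount, scaling, limma-voom on recovered reads, array weights, an adipocyte covariate, a replicate block and each library left out. The leave-one-out runs of the covariate fit were added after values were seen.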

Additional observations from a re-analysis of the deposited data

Results flagged for a closer look

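Over the 8 high-fat libraries, Lpl at 69.6 FPKM in HFD 1/2 (216 FPKM for Fabp4 in the same library) lay far above the rest, with a gap to the next library of 0.611 of the whole range for Lpl and 0.873 for Fabp4, both above Dixon's 95% limit for 8 values. About 1 group in 20 passes this limit by chance. On the log2(FPKM + 1) scale, checked after the values were seen, the gaps were 0.363 and 0.464 of the range and neither passed. The same library had the highest summed adipocyte markers of the series (1383 FPKM) and the highest cardiomyocyte markers (243 FPKM), and their part in these values was not tested. It is the one deposited as both HFD replicates 1 and 2.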

How the results depend on the processing

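Over the 20 or 21 alternatives run for each difference, the sign of the Angptl4 differences and the uncalled state of all 4 genes among the high-fat groups did not turn. Calls of Angptl4 and Gpihbp1 against WT came only without WT replicate 3, with array weights and, for Angptl4, with the adipocyte covariate. With array weights both were called in HAPN, HSAPN and the high-fat groups together (2 of 4 genes each, also over the 4 groups), but not in HFD. The covariate gave 1 call in HSAPN and 2 in the high-fat groups together. The causes were not tested. Fabp4 and Lpl are limited by the spread between libraries and not by depth. Correlations rest on 11 libraries.

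Leaving out each library in turn, 0 to 2 of the 4 genes were called in HFD, HAPN, HSAPN and all high-fat groups against WT and over the 4 groups, 2 only without WT 3. Genes called ran from 0 to 27 in HFD (27 without WT 3, 17 without HFD 3), 0 to 177 in HAPN, 0 to 164 in HSAPN and 0 to 240 in all high-fat groups against WT, each highest without WT 3. They ran from 0 to 6 in HAPN and 0 to 3 in HSAPN against HFD, 0 to 3 in HSAPN against HAPN, and 0 to 53 over the 4 groups, against 3, 0, 2 and 2 with all libraries. Differences that turned sign ran from -2.98 to 3.15 (Fabp4) and -0.63 to 2.45 (Lpl) in HFD against WT, from -0.44 to 0.45 (Lpl) in HAPN against WT, and from -2.01 to 0.036 (Fabp4) in all high-fat groups against WT. In HAPN against HFD they ran from -4.49 to 1.64 (Fabp4), -2.36 to 0.71 (Lpl) and -0.53 to 0.41 (Gpihbp1), and in HSAPN against HFD from -4.85 to 1.28 (Fabp4), -1.84 to 1.24 (Lpl) and -0.41 to 0.52 (Gpihbp1). In HSAPN against HAPN they ran from -1.11 to 0.46 (Fabp4) and -0.20 to 0.29 (Gpihbp1). Where HFD kept 1 library, it was assumed to vary like the other groups.

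Whether replicate numbers pair the samples could not be decided. Same-numbered libraries of HSAPN, HAPN and WT correlated in their deviations from group means at r of -0.53 to 0.33, with 3 of 9 pairs over 0.1. Libraries of other numbers ranged from -0.59 to 0.47, and HFD was not included. So few libraries per group cannot exclude a pairing. With a replicate block none of the 4 genes was called. Genes called were 1 in HAPN against WT, 0 in HAPN against HFD and 1 over the 4 groups with the identical HFD library as number 1. As number 2 they were 1 in HFD and 1 in HAPN against WT, 1 in HSAPN against HFD and 0 in all high-fat groups against WT. That block turned Fabp4 to -0.38 in HFD against WT and Gpihbp1 to 0.14 in HAPN against HFD.

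Genes called with no filter were 2 in HFD, 1 in HAPN and 3 in all high-fat groups against WT, 5 in HAPN and 2 in HSAPN against HFD, 1 in HSAPN against HAPN and 4 over the 4 groups. With 1 FPKM in 6 libraries they were 0 in HAPN against HFD, 0 in all high-fat groups against WT and 0 over the 4 groups. A pseudocount of 0.1 gave 0 in all high-fat groups against WT. Median-ratio scaling gave 17 in HAPN and 0 in all high-fat groups against WT, 5 in HAPN against HFD and 4 over the 4 groups. In limma-voom on recovered reads they were 0 in HFD, HAPN, HSAPN and all high-fat groups against WT and 0 in HAPN against HFD, with 1 in HSAPN against HAPN and 1 over the 4 groups. Array weights gave 529 in HAPN, 395 in HSAPN and 263 in all high-fat groups against WT, 0 in HAPN against HFD, 79 in HSAPN against HAPN and 264 over the 4 groups. The covariate gave 1 in HFD, 37 in HAPN, 19 in HSAPN and 77 in all high-fat groups against WT, 5 in HAPN against HFD and 8 over the 4 groups. A fit on only the groups compared gave 0 in HAPN against HFD and 0 in HSAPN against HAPN. For the counts of 0 among all libraries, 189 genes in HFD, 368 in HAPN and 360 in HSAPN against WT and 67 in HSAPN against HFD had an unadjusted p under 0.05.

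Further sign changes were all of uncalled differences. Fabp4 in HFD against WT was at -0.079 with pseudocount 0.1, -0.18 in limma-voom, -0.015 with array weights and -0.066 with the covariate. Gpihbp1 in HAPN against HFD was at 0.21 with median-ratio scaling, 0.18 in limma-voom, 0.11 with array weights and 0.0041 with the covariate. In HSAPN against HAPN array weights gave -0.053 for Gpihbp1 and -0.12 for Lpl. The covariate gave Fabp4 0.071 in HAPN, 0.087 in HSAPN and 0.031 in all high-fat groups against WT, 0.14 in HAPN and 0.15 in HSAPN against HFD and 0.016 in HSAPN against HAPN, and Lpl 0.72 in HSAPN against HFD.

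Of 22 relations 9 passed by Pearson r and 7 by Spearman rho, 1 without the 2 libraries farthest from the median and 0 among deviations. Without those 2 libraries r was -0.21 for Angptl4 with Lpl, -0.53 with Fabp4 and -0.47 with the adipocyte markers, and -0.12 for Gpihbp1 with Lpl. By rank, rho was -0.27 for Angptl4 with Fabp4, -0.26 with the adipocyte markers and -0.073 for Gpihbp1 with Lpl. Among deviations r was 0.13 for Gpihbp1 with the adipocyte markers and 0.041 for Angptl4 with the cardiomyocyte genes.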
